A study of Homo sapiens with 4 samples.

Results

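Chromatin loops that span 35 to under 250 kb and land on both sides outside every protein-coding gene body were examined in SMC1 HiChIP lists of GM12878, a B lymphoblastoid line transformed by Epstein-Barr virus. HiChIP joins proximity ligation of chromatin with immunoprecipitation, here of SMC1, a core subunit of the cohesin ring. A loop belonged to the class when neither of its 5 kb anchor bins overlapped the body of any of the 19974 protein-coding genes of RefSeq GRCh38.p14, whichever library listed it. Of 41846 different loops in the 4 lists, 30672 lay in this span range and 5360 of these had both anchors outside genes. The other mid-range loops comprised 12485 with 1 anchor on a gene, 5629 with both anchors on the same gene and 7198 with anchors on different genes. The treated libraries came from cells kept for 18 h in 0.4 µM aphidicolin (APH), which blocks DNA polymerases of the replication fork, or in 0.2 mM hydroxyurea (HU), which depletes deoxynucleotides. Cells given the vehicle of aphidicolin, dimethyl sulfoxide (DMSO), and the vehicle of hydroxyurea, water (H2O), for 18 h gave the matching libraries. All 4 groups share the same cell line and the same antibody, and the sample titles name another lymphoblastoid line where the source and cell line fields say GM12878. Each group is 1 library, so no difference below has a replicate check, no p-value is given, and every interval covers counting error only.

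Cohesin is thought to form loops by extruding the chromatin fibre until it meets CTCF, a zinc finger protein bound to its motif, or until it is released by WAPL. Loop ends therefore often lie at CTCF sites, many of them between genes, where a pair of them can frame one or more genes as an insulated neighbourhood. Loop ends outside genes can also be enhancers or the promoters of non-coding RNAs, which the rule does not count as genes. In lymphoblastoid cells, viral proteins that drive NF-kB signalling act on many such elements near B cell genes.

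Some non-coding RNA starts lay inside these anchors, and their sequences are shown because the rule leaves non-coding genes as the only ones that an anchor can hold. RefSeq promoters, 250 bases before to 50 bases after the start and read 5′ to 3′ on the gene's strand, lay wholly inside an anchor of the class for 363 genes. The core CTCF motif, written as CCA, any 2 bases, AG, any 2 bases and GGC and searched on both strands, occurred in 15 of them (4.13%, exact 95% binomial interval 2.33% to 6.72%). It occurred in 3.19% (2.29% to 4.33%) of the 1252 non-coding promoters inside anchors of other mid-range loops. Over all 12829 non-coding promoters of the table it was 2.23% (1.98% to 2.50%), and over all 34961 promoters 2.41% (2.26% to 2.58%). The interval of the class overlaps each of these intervals. The match is to letters only. The first promoter below belongs to MIR155HG, the host of miR-155, a microRNA known for its high level in transformed B cells, and lies at chr21:25561895-25562194 on the plus strand. LOC124903741, at chr16:85985248-85985547 on the minus strand, lies under the far anchor of loops around IRF8. LINC02967, at chr20:24918314-24918613 on the plus strand, lies in a bin where 13 loops of the class end. None of these 3 holds the motif. LOC124903549, at chr15:89358617-89358916 on the minus strand, and LOC105370680, at chr14:102524570-102524869 on the plus strand, each hold 1 match, shown in capitals. The genes were picked after their loop counts and motif matches were seen.
MIR155HG promoter: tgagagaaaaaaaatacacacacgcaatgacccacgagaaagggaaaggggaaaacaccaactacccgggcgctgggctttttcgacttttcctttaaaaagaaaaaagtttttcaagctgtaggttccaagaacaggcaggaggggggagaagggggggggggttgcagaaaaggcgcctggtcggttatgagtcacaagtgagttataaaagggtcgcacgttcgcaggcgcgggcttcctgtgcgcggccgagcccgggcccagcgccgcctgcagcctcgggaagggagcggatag
LOC124903741 promoter: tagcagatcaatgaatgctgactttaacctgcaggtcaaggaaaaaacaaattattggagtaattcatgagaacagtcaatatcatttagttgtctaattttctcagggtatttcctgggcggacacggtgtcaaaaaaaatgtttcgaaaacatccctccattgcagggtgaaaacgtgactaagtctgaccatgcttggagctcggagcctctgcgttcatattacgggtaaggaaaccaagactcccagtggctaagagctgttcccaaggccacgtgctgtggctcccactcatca
LINC02967 promoter: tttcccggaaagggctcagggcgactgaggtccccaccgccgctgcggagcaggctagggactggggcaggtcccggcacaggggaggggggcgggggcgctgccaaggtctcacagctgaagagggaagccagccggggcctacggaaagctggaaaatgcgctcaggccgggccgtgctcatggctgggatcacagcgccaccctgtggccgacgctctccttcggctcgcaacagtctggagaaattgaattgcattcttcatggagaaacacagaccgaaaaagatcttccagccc
LOC124903549 promoter: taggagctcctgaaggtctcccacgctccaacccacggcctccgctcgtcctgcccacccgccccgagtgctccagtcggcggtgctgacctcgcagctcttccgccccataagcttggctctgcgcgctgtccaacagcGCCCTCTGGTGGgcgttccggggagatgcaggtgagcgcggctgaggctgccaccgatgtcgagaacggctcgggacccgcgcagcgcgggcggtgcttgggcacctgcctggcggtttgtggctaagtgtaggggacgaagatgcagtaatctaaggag
LOC105370680 promoter: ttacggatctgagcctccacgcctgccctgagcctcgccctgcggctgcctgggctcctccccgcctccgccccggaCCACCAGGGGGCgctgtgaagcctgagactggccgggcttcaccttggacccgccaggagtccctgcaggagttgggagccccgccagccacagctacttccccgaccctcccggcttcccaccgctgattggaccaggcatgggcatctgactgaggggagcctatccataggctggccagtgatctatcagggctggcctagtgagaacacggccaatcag

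Of 1772 microRNA genes in the RefSeq table, 32 lay inside an anchor of the class. The mature forms below are those of miR-155, of miR-146a, an NF-kB induced microRNA, of miR-17, the first microRNA of an oncogenic cluster, and of miR-193b. Capitals mark the seed, bases 2 to 8, which pairs with target RNAs. No 2 of these 8 mature forms share a seed. The loops that end on them are described with the other loci.
hsa-miR-155-5p: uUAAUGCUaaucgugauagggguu
hsa-miR-155-3p: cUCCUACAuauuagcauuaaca
hsa-miR-146a-5p: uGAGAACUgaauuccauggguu
hsa-miR-146a-3p: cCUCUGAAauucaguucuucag
hsa-miR-17-5p: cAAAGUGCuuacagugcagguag
hsa-miR-17-3p: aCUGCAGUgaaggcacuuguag
hsa-miR-193b-5p: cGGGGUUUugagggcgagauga
hsa-miR-193b-3p: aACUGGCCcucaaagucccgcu

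The lists hold only called loops with at least 12 counts, so a loop missing from a list is not at 0 and the read depth of the libraries is unknown. The APH list held 27395 loops and the DMSO list 17660, against 21448 in HU and 22446 in H2O. The class took a like share of the mid-range loops in each list. It comprised 3715 loops in APH (17.8%, exact 95% interval 17.2% to 18.3%), 2208 in DMSO (16.9%, 16.2% to 17.5%), 2867 in HU (17.7%, 17.1% to 18.3%) and 2764 in H2O (16.7%, 16.2% to 17.3%). The intervals of HU and H2O overlapped, as did those of APH and DMSO, though each drug interval lay above the share of its vehicle. These listed loops summed to 103476 counts in APH, 60522 in DMSO, 77004 in HU and 75344 in H2O. The median count of a listed loop was 20 in each of the 4 libraries, and the highest was 318 in APH, 271 in DMSO, 268 in HU and 246 in H2O. At the lower span limit, 245 loops of 35 kb were just inside and 239 of 30 kb with anchors outside genes just outside, with mean counts of 29.5 and 36.4 per listing. At the upper limit 56 loops of 245 kb lay inside and 40 of 250 kb outside, with means of 20.8 and 23.0.

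The 5360 loops used 6342 different anchor bins, which lay a median of 21.1 kb from the nearest coding gene (quartiles 6.61 and 60.4 kb). Of these bins, 15.2% were at least 100 kb from any coding gene. A long non-coding RNA gene overlapped an anchor in 2745 loops, a microRNA gene in 55, and no RefSeq gene of any kind touched either anchor in 2243 loops (41.8%). Although their ends avoid genes, most of the loops surrounded one. A whole coding gene lay between the anchors in 3021 loops (56.4%, 55.0% to 57.7%), against 44.4% (43.5% to 45.3%) of the loops with 1 anchor on a gene. Of the 5360, 2339 held no gene, 2022 held exactly 1, 758 held 2 to 3 and 241 held at least 4, up to 13. The share with a gene inside grew with span, and at 150 to 250 kb it was 80.1% (77.8% to 82.3%) in the class and 54.0% (52.3% to 55.6%) for loops with 1 anchor on a gene. At 35 to 60 kb it was 29.1% and 29.7% in the same order, and these intervals overlap. A loop with an anchor inside a gene can hold that gene only in part, so the rule itself lowers the share in the other classes.

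**Figure D1:**
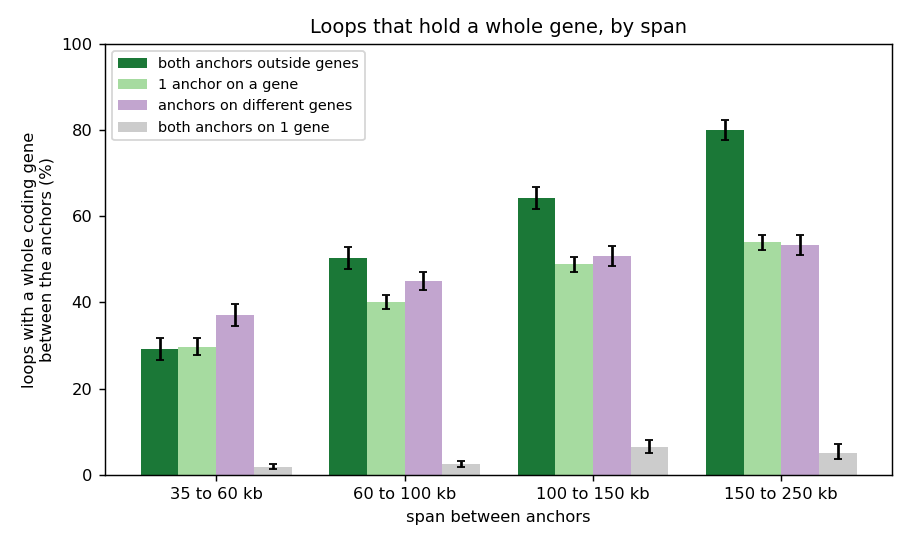
Share of mid-range loops with a whole protein-coding gene between the anchors (%), by span class and by where the anchors lie, over all loops listed in any library. Bars carry exact 95% binomial intervals. In the 60 to 100, 100 to 150 and 150 to 250 kb classes, loops with both anchors outside genes have the highest share, 80.1% in the last.

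Loops listed in all 4 libraries numbered 1292, which is 24.1% of the class (23.0% to 25.3%), against 24.2% of the other mid-range loops and 22.8% of all loops. Of these shared loops 73.6% held a whole gene, while the loops listed in a single library held one in 44.8% (HU) to 50.2% (APH and DMSO) of cases. The shared loops were also longer, with a median span of 110 kb, against 90 kb (APH and HU) to 100 kb (H2O) for loops in a single list. These shares were not matched on span. The 100 shared loops with most counts, of 85 kb median span, held a gene in 84 cases, exactly 1 gene in 62. The shared loops were also ranked by summed count and split into 4 groups of 323. In rank order the share with a gene was 74.0%, 66.3%, 77.4% and 76.8%, so it did not change steadily with count. The median spans of the 4 groups were 90, 100, 120 and 120 kb. Loops found in APH alone numbered 1091 (20.4%, beside 18.4% of the other mid-range loops) and in DMSO alone 231 (4.31%, beside 5.13%). In HU alone were 574 (10.7%, beside 9.21%) and in H2O alone 532 (9.93%, beside 10.99%). The APH list is the longest of the 4 and the DMSO list the shortest.

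At 9 of the 10 places with most counts the loop framed exactly 1 gene. The top loop, 55 kb at chr1:27605001-27665000, framed FGR, a Src family kinase whose RNA rises in B cells after Epstein-Barr virus infection. It had 299 counts in APH, 271 in DMSO, 268 in HU and 246 in H2O. The second framed ID3, an inhibitor of E protein transcription factors in B cells, with a 95 kb span and 318 counts in APH, 225 in DMSO, 256 in HU and 238 in H2O. SLAMF7, an immune cell receptor, followed with 223 counts in APH, 190 in DMSO, 197 in HU and 203 in H2O. The fourth framed no coding gene. Its anchors both lay in the T cell receptor alpha locus and in TRD-AS1, whose segments RefSeq does not class as protein-coding, and it had 240 counts in APH, 189 in DMSO, 180 in HU and 178 in H2O. SEMA7A, a membrane-bound semaphorin, was framed by a loop with 205 counts in APH, 182 in DMSO, 176 in HU and 173 in H2O. The remaining places of the 10 were CALCOCO1, an autophagy receptor, PLAU, the urokinase gene, HAND1, a heart transcription factor, KCNA5, a potassium channel, and SCIMP, an adaptor of antigen presenting cells. Among these 5 the raw counts ran from 140, at KCNA5 in DMSO, to 215, at CALCOCO1 in APH. HAND1, with 172 counts in APH, 181 in DMSO, 142 in HU and 190 in H2O, was the one of the 10 in which both drug libraries had fewer raw counts than their vehicle libraries and the APH count was below both vehicles. All 10 were in all 4 lists.

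**Figure D2:**
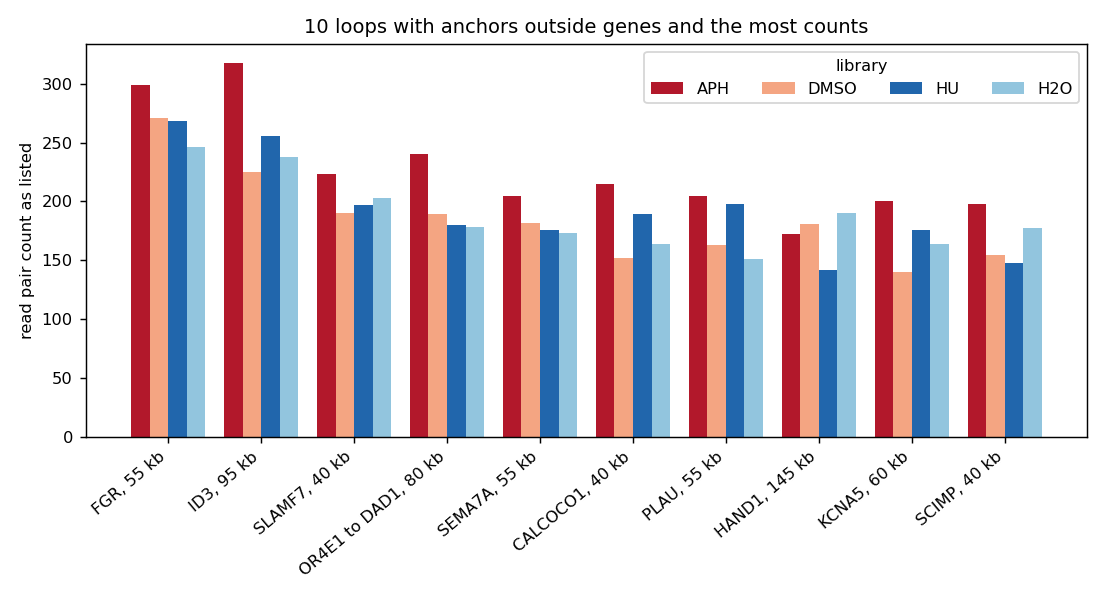
Read pair counts as listed, not scaled, of the 10 places with the most counts summed over the libraries, with 1 bar per library. Names give the framed gene, or the nearest genes on either side where none is framed, and the span. APH is the highest bar at 9 of the 10 places, and HAND1, with 172 in APH and 190 in H2O, is the exception.

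To set the libraries side by side, counts of loops in all 4 lists were divided by each library's total over the 9529 loops that all 4 shared, and differences are log2 ratios of these scaled counts. Over the 1292 shared loops of the class, 57088 counts in APH against 43829 in DMSO gave a pooled log2 ratio of 0.05 (0.04 to 0.07). HU, with 48042 counts, against H2O, with 47544, gave 0.03 (0.01 to 0.05), and H2O against DMSO gave 0.00 (-0.02 to 0.02). The class lay above the other mid-range loops by 0.05 (0.03 to 0.07) in APH against DMSO and by 0.03 (0.01 to 0.05) in HU against H2O, and by 0.00 (-0.02 to 0.02) between the vehicles. These are shifts of a few percent with no replicate to set them against. Divided by the expected counts, the difference of the medians over loops turned to -0.014 in APH against DMSO, and with at least 24 counts in every library the difference in HU against H2O was 0.020 (-0.005 to 0.044), which holds 0. The vehicle comparison shares the DMSO library with the first drug contrast and the H2O library with the second. Dividing by the totals of all listed loops in place of the shared ones would move each ratio by -0.38 for APH against DMSO, by 0.05 for HU against H2O and by -0.24 for H2O against DMSO, so directions below are relative to the loops that all 4 lists share.

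Short members had higher ratios than long ones in both drug contrasts. In APH against DMSO the pooled log2 ratio was 0.12 (0.07 to 0.16) at 35 to 60 kb, 0.11 (0.08 to 0.14) at 60 to 100 kb, 0.04 (0.01 to 0.08) at 100 to 150 kb and -0.05 (-0.09 to -0.01) at 150 to 250 kb. In HU against H2O it was 0.12 (0.08 to 0.16), 0.05 (0.02 to 0.08), 0.04 (0.01 to 0.08) and -0.08 (-0.11 to -0.04) in the same span classes. Other mid-range loops ran the same way, with -0.10 in APH against DMSO and -0.09 in HU against H2O at 150 to 250 kb. In the vehicle comparison the intervals of all 4 span classes held 0. The class exceeded the other mid-range loops most at 100 to 150 kb in HU against H2O, by 0.09 (0.05 to 0.13), where the other loops were at -0.04. In the other 3 span classes this difference was 0.00, 0.02 and 0.01, from the shortest to the longest, and each interval held 0. Listed spans moved the same way, since 21.5% of the APH members and 18.6% of the DMSO members, and 22.5% of the HU members and 17.7% of the H2O members, were under 60 kb.

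**Figure D3:**
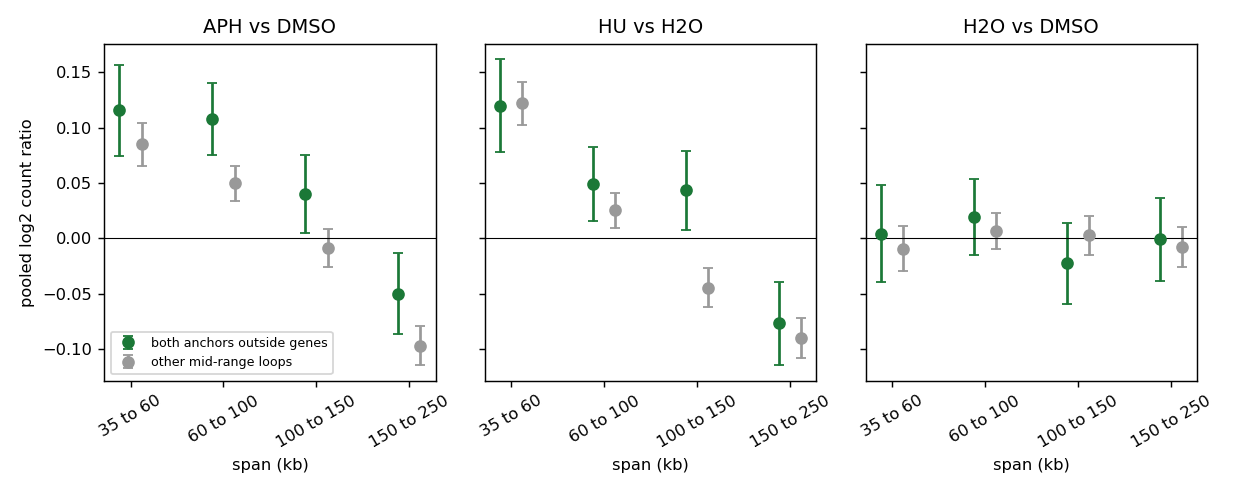
Pooled log2 count ratio, scaled by the loops shared by all 4 lists, in 4 span classes for loops with both anchors outside genes and for other mid-range loops. Bars are exact 95% intervals for counting error. The ratio falls with span in APH against DMSO and in HU against H2O, from 0.12 at 35 to 60 kb to -0.05 and -0.08 at 150 to 250 kb, and stays near 0 between the vehicles.

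By what they hold, loops with at least 4 genes had the lowest ratio in both drug contrasts. In APH against DMSO gene-free loops were at 0.07 (0.04 to 0.11), loops with 1 gene at 0.06 (0.03 to 0.08), those with 2 to 3 genes at 0.05 (0.01 to 0.09) and those with at least 4 at -0.08 (-0.17 to 0.00), an interval that does not overlap those of the other 3. In HU against H2O the 4 values were 0.02 (-0.02 to 0.05), 0.03 (0.01 to 0.06), 0.07 (0.02 to 0.11) and -0.07 (-0.16 to 0.02). There the interval of loops with at least 4 genes, from 71 shared loops, held 0. It also overlapped those of gene-free loops and of loops with 1 gene. The last group is also the longest, with a median span of 160 kb, against 70 kb for gene-free loops. Loops with no RefSeq gene of any kind under either anchor were at 0.07 (0.04 to 0.10) in both contrasts. Loops with a long non-coding RNA under both anchors, 685 in all and 147 shared, were at 0.01 (-0.04 to 0.06) in APH against DMSO and at -0.09 (-0.14 to -0.04) in HU against H2O.

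A single loop was counted as differing when its scaled ratio was at least 1.5-fold and its interval excluded 1. In APH against DMSO, 43 of the 1292 were higher and 16 lower, or 4.57%, beside 4.7% of all shared loops (2.28% higher, 2.42% lower). In HU against H2O, 47 were higher and 38 lower, or 6.58%, beside 6.37% (3.41% higher, 2.96% lower). Between the vehicles 15 were higher and 10 lower in H2O, or 1.93%, beside 2.21%. The share of differing loops thus lay near the background in all 3 comparisons. In APH against DMSO 72.9% of the differing loops of the class were higher, beside 68.1% of those with both anchors on 1 gene, 50.7% of those with 1 anchor on a gene, 37.8% of those with anchors on different genes and 54.2% of all mid-range ones. This split depends on the scaling. With the totals of all listed loops it was 6 higher and 154 lower in APH against DMSO, 58 and 24 in HU against H2O, and 1 and 76 in H2O against DMSO. Against the other vehicle, APH had 46 loops higher and 36 lower, and HU had 54 and 27.

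Of the 8 loops highest in APH against DMSO, 3 held no coding gene, and all had 12 to 22 counts in DMSO. A 105 kb loop around FZD2, a Wnt receptor, had 40 counts in APH and 12 in DMSO, with 33 in HU and 17 in H2O, for a log2 ratio of 1.41 (0.45 to 2.48) in APH against DMSO. A 55 kb loop around SPADH and C10orf120 had 50 in APH and 15 in DMSO, the same ratio. Gene-free loops between FHDC1 and TRIM2 (52 in APH, 16 in DMSO) and between CCNG2 and CXCL13 (37 in APH, 12 in DMSO) were at 1.37 and 1.30. Loops around the secretoglobins SCGB1D2, SCGB2A2 and SCGB1D4, between NOS2 and LYRM9, around IL12A, a subunit of interleukin 12, and around SOST, an inhibitor of Wnt signalling in bone, followed at 1.24 to 1.12. For the loops at SCGB1D2, the H2O library with 45 counts also stood above DMSO with 22, by 0.92 (0.15 to 1.72). Against the H2O library the ratio of APH was smaller and its interval held 0 for 5 of these 8 loops. They were those at SPADH (0.68), between CCNG2 and CXCL13 (0.30, -0.46 to 1.08), at SCGB1D2 (0.32), between NOS2 and LYRM9 (0.83) and at SOST (0.55).

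Of the 8 loops lowest in APH against DMSO, 2 framed MAP3K8 and 1 framed DUSP5. A 115 kb loop around MAP3K8, the kinase TPL2 that relays NF-kB and MAP kinase signals, had 20 counts in APH and 46 in DMSO, with 24 in HU and 39 in H2O. Its ratio was -1.53 (-2.37 to -0.74) in APH against DMSO. A 200 kb loop around the same gene had 36 in APH and 56 in DMSO, a ratio of -0.97. A 195 kb loop around DUSP5, a MAP kinase phosphatase, had 21 in APH and 42 in DMSO, with 28 in HU and 39 in H2O, a ratio of -1.33 (-2.17 to -0.54). The right anchor of this loop lies 17.7 kb from SMC3, the partner of SMC1 in the cohesin ring. A 120 kb loop around the GSTM1 to GSTM5 cluster of glutathione transferases had 13 in APH and 27 in DMSO, a ratio of -1.38. SUSD6, AKR1B10 with AKR1B15, OPRD1, the delta opioid receptor, and SLC1A4, an amino acid transporter, followed between -0.98 and -0.94. Against the H2O library the ratio was -0.68 (-1.83 to 0.43) at the GSTM cluster, -0.13 (-1.17 to 0.92) at AKR1B10, -0.53 for the 200 kb MAP3K8 loop and -0.61 at SLC1A4, and all 4 intervals held 0.

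In HU against H2O the loop with the highest ratio was also among the best counted. A gene-free 130 kb loop at chr7:25255001-25390000, between NPVF and NFE2L3, had 108 counts in HU and 45 in H2O, a log2 ratio of 1.28 (0.76 to 1.81). The same loop had 121 counts in APH and 48 in DMSO, a ratio of 1.01 (0.51 to 1.52), so both drug libraries lay far above both vehicle libraries. A 40 kb loop around MBL2, the mannose-binding lectin of the liver, had 86 in HU and 39 in H2O, at 1.16 (0.59 to 1.74), and 94 in APH and 36 in DMSO, at 1.06 (0.49 to 1.65). An 85 kb loop around NEUROG1, a neuronal transcription factor, had 93 in HU and 43 in H2O, at 1.13, but 85 in APH and 56 in DMSO, at 0.27, where the interval held 0. Loops between MCHR2 and SIM1, beside SEMA6A, between KBTBD8 and SUCLG2, between FAM241B and COL13A1 and around IPMK with CISD1 followed at 1.14 to 1.08, each with 26 to 48 counts in HU and 12 to 22 in H2O. Against the DMSO library the interval of HU held 0 beside SEMA6A (0.79), between KBTBD8 and SUCLG2 (0.90), between FAM241B and COL13A1 (0.71) and at IPMK (0.71).

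The lowest loop in HU against H2O framed SUSD6, with 14 counts in HU and 35 in H2O, at -1.31 (-2.31 to -0.38). It had 21 in APH and 33 in DMSO, and was thus among the 8 lowest in both contrasts. Over the 8 shared loops that framed SUSD6 the pooled ratio was -0.13 (-0.32 to 0.07) in APH against DMSO and -0.28 (-0.49 to -0.08) in HU against H2O. Gene-free loops between GTSF1L and TOX2 (21 in HU, 46 in H2O), between BUB3 and GPR26 (22 in HU, 48 in H2O) and between RNF144A and ID2 (28 in HU, 59 in H2O) were at -1.12, -1.11 and -1.06. Loops around KLHL9 with 3 interferon alpha genes, around RGS16 and RGS8, regulators of G protein signalling, around GRAMD2B, and around CLEC10A and ASGR2, cell surface lectins, lay between -1.08 and -1.04. At GRAMD2B the vehicles themselves differed, with 42 counts in H2O and 19 in DMSO, and HU against DMSO was at -0.03 (-1.01 to 0.96). Against DMSO the interval of HU also held 0 between GTSF1L and TOX2 (-0.57), between BUB3 and GPR26 (-0.50), at KLHL9 (-0.38) and at CLEC10A (-0.79).

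**Figure D4:**
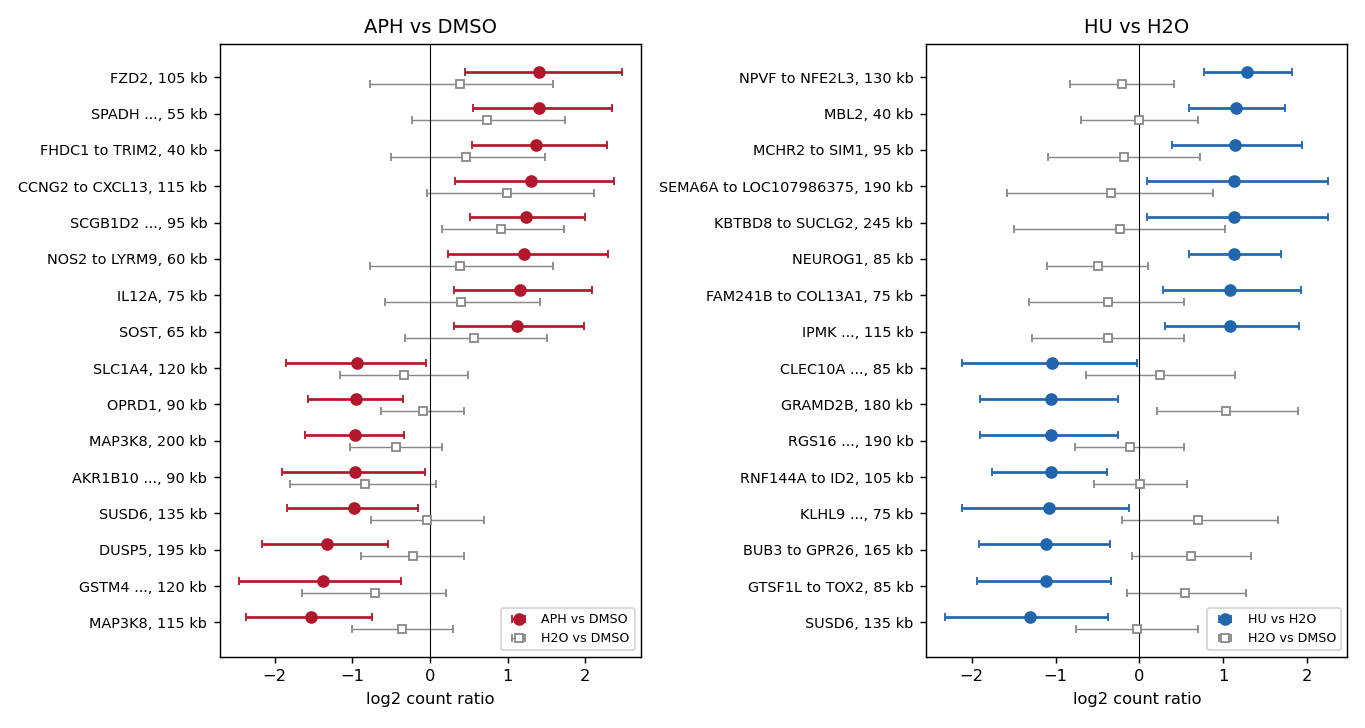
Log2 count ratios of the 8 highest and 8 lowest loops of the class in APH against DMSO (left) and HU against H2O (right), with exact 95% intervals for counting error. Filled circles give the drug contrast and open squares H2O against DMSO for the same loop. The drug ratios run from 1.41 (FZD2) to -1.53 (MAP3K8) for APH against DMSO and from 1.28 (NPVF to NFE2L3) to -1.31 (SUSD6) for HU against H2O.

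A total of 11 loops of the class (0.851%) differed in both drug contrasts, beside 0.777% of all shared loops. Higher in both were 6 (0.464% of the class, beside 0.462%), which is 14.0% of the 43 in APH against DMSO and 12.8% of the 47 in HU against H2O. Among all shared loops 44 were higher in both, of 217 higher in APH against DMSO and 325 in HU against H2O. The 6 of the class were the loops at FZD2, MBL2, NPVF to NFE2L3, FOXI1, APLNR with LRRC55, and between OASL and P2RX7. The FOXI1 loop, around a transcription factor of the kidney and inner ear, had 120 counts in APH and 54 in DMSO, and 98 in HU and 56 in H2O, giving 0.82 in each contrast. Lower in both were 4 (0.310%, beside 0.273%), namely the loops at SUSD6, at E2F3, a cell cycle transcription factor, between RNF144A and ID2, and a 165 kb loop between OR4E1 and DAD1 whose left anchor lies in the T cell receptor alpha locus. The E2F3 loop, of 235 kb, had 64 counts in APH and 86 in DMSO, at -0.75, and 39 in HU and 78 in H2O, at -0.98. The loop at GRAMD2B was higher in APH against DMSO (43 and 19 counts, 0.85) and lower in HU against H2O (20 and 42, -1.05), the only one of the class with opposite directions, beside 0.042% of all shared loops. These 11 loops were named after their values were seen.

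Listing patterns gave a further view of loops below the threshold of some lists. Loops were matched on the exact pair of bins. Numbers with 1 bin of tolerance are given at the end for loops in all 4 lists and in both vehicle lists only. In both drug lists and neither vehicle list were 336 loops, 6.27% of the class (5.63% to 6.95%), beside 5.69% of all loops. In both vehicle lists and neither drug list were 90, or 1.68% (1.35% to 2.06%), beside 2.03%. The class is therefore close to all loops in both patterns. Loops in both drug lists only had a median span of 80 kb and held a gene in 44.3% of cases, and loops in both vehicle lists only had a median span of 122.5 kb and held one in 52.2%. The best counted of the first kind was a gene-free 45 kb loop between PDE4B and SGIP1 (58 in APH, 48 in HU). Others were a 35 kb loop between DENND5B and ETFBKMT (49 in APH, 43 in HU), a 45 kb loop around BATF, an AP-1 factor of lymphocytes (45 in APH, 42 in HU), and a loop between ZNF217 and BCAS1 (47 in APH, 36 in HU). The fifth, around RNASE9, RNASE11 and RNASE12, had 35 in APH and 43 in HU. BATF was framed by 6 loops of the class in all, 4 of them in APH, 3 in DMSO, 4 in HU and 4 in H2O. The 2 in all 4 lists were at 0.04 (-0.43 to 0.51) in APH against DMSO and -0.26 (-0.80 to 0.27) in HU against H2O. Of the second kind, the best counted was a gene-free 35 kb loop from LINC01307 between S1PR1 and OLFM3, with 55 counts in DMSO and 73 in H2O, and a 65 kb loop from the same anchor had 30 and 40. LINC01307 lay under an anchor of 11 loops of the class. The 3 in all 4 lists were at 0.06 (-0.24 to 0.37) in APH against DMSO and -0.11 (-0.42 to 0.19) in HU against H2O. A pair of loops near CDC42EP3 had 41 in DMSO each, with 52 and 47 in H2O. Another, of 35 kb, lay 28.2 kb beyond the end of MAP3K8 and had 37 in DMSO and 44 in H2O. These counts stand well above the lowest listed count of 12, but the counts of these loops in the other 2 libraries were not listed.

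The loops around MAP3K8 came from 24 pairs of bins that share a few anchors, so they are not independent of each other. Of these, 17 were listed in APH, 13 in DMSO, 14 in HU and 16 in H2O. The 8 shared ones summed to 287 counts in APH, 320 in DMSO, 254 in HU and 355 in H2O, for a pooled log2 ratio of -0.48 (-0.72 to -0.25) in APH against DMSO and -0.47 (-0.71 to -0.23) in HU against H2O. The vehicles were at 0.03 (-0.19 to 0.26). The best counted of them, 140 kb, had 65 in APH, 69 in DMSO, 47 in HU and 72 in H2O. Of the 8, APH against DMSO was below 0 in 7 and HU against H2O in 7, and a different loop was the exception in each. Among the 8 are the 115 kb and 200 kb loops named above for their low ratios in APH against DMSO. The pooled APH ratio is therefore not separate from that choice.

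**Figure D5:**
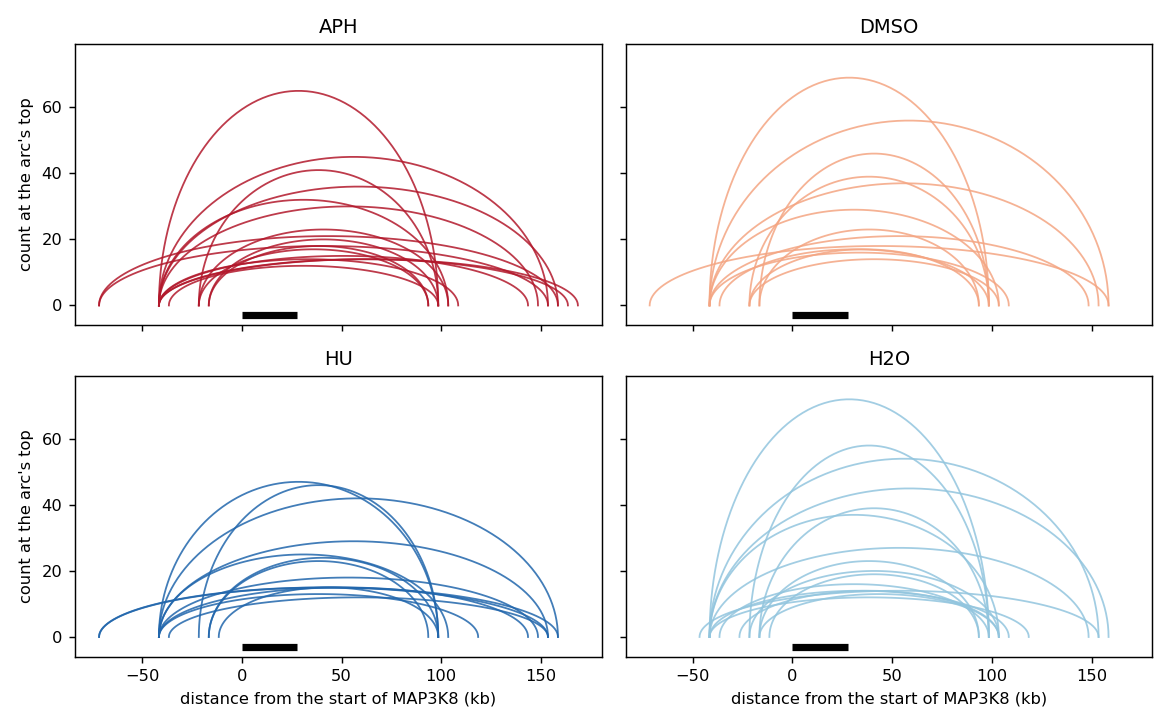
Loops of the class that frame MAP3K8, in the 4 libraries. Each arc joins the centres of its anchors, its height is the listed count, the x axis is the distance from the start of the gene in kb, and the black bar is the gene. The same few anchors on both sides of the gene recur in all panels, and the tallest arc is 65 counts in APH, 69 in DMSO, 47 in HU and 72 in H2O.

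Other genes framed by many loops included ID3 (19 loops), IRF2BPL (18), IRF8 (18) and KCNA1 (17). IRF8, a transcription factor of germinal centre B cells, was framed by 8 shared loops with 528 counts in APH, 481 in DMSO, 415 in HU and 516 in H2O. Their pooled ratio was -0.19 (-0.37 to -0.01) in APH against DMSO and -0.30 (-0.49 to -0.11) in HU against H2O. With the 3 further shared loops that end within 50 kb of IRF8, it was -0.10 (-0.26 to 0.06) and -0.13 (-0.30 to 0.04), where both intervals held 0. The best counted, 195 kb, had 178 in APH, 169 in DMSO, 138 in HU and 177 in H2O. For the 10 shared loops around ID3 the counts were 828 in APH, 585 in DMSO, 668 in HU and 652 in H2O, and the ratios 0.17 (0.02 to 0.33) and 0.05 (-0.11 to 0.21). Over the 13 that frame ID3 or end within 50 kb of it the first was 0.09 (-0.04 to 0.23). The 6 shared loops around KCNA1, a neuronal potassium channel, had 294 counts in APH, 263 in DMSO, 233 in HU and 232 in H2O, with intervals that held 0 in both drug contrasts. The vehicles differed there, with -0.30 (-0.56 to -0.04) in H2O against DMSO, and 15 of its 17 loops were in the APH list, 11 in DMSO, 6 in HU and 6 in H2O.

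Most anchors served 1 loop, but some served many. Of 6342 bins, 4071 had a single loop of the class, 257 had at least 5 and 18 at least 10. The busiest bin, at chr5:154465001-154470000, 4.97 kb from HAND1, was the left anchor of all its 16 loops, which ran 100 to 175 kb to the right. Of these, 12 were in APH, 12 in DMSO, 11 in HU and 11 in H2O. The LINC02967 bin on chromosome 20, whose promoter is printed above, was the right anchor of all its 13 loops, 11 in APH and 8 in each of the other lists, and none framed a gene. A bin 156 kb from TNFAIP3, an inhibitor of NF-kB, and bins near KCNA1, in the T cell receptor alpha locus and near IRF8 had 12 each. The pooled ratios of the shared loops of these 6 bins had intervals that held 0 in both drug contrasts.

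Loops on the miR-155 host gene were uneven between lists. MIR155HG lay under an anchor of 17 loops of the class, of which 9 were listed in APH, 13 in DMSO, 5 in HU and 13 in H2O. The 2 listed in all 4 had 89 counts in APH, 86 in DMSO, 83 in HU and 87 in H2O, with ratios of -0.28 (-0.72 to 0.17) and -0.05 (-0.50 to 0.40), so the shared loops did not differ beyond counting error. The loops on the bin that holds its promoter numbered 5 in APH, 7 in DMSO, 3 in HU and 6 in H2O, with 262, 298, 115 and 255 listed counts in these libraries. The bin that holds the miR-155 hairpin had 2 in APH, 4 in DMSO, 0 in HU and 4 in H2O, and none shared by all 4. Since unlisted loops are not at 0, these numbers describe the lists and not a measured loss. A single 50 kb loop ended on MIR146A, with 38 counts in APH, 38 in HU and 32 in H2O, and was not in the DMSO list. The 1 loop on MIR17 itself had 19 in APH, 21 in HU and 25 in H2O and was not in the DMSO list. A 35 kb loop that ended on another bin of its host gene, MIR17HG, had 62 in APH, 59 in DMSO, 59 in HU and 49 in H2O. Loops on MIR193B numbered 4 in APH, 3 in DMSO, 1 in HU and 2 in H2O. The 8 loops on the LOC124903741 promoter beyond IRF8 had 332 listed counts in APH, 333 in DMSO, 275 in HU and 382 in H2O, and 3 were shared. Loops on the LOC124903549 promoter, which holds the motif, numbered 5 in APH, 4 in DMSO, 5 in HU and 3 in H2O.

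Gene lists set by name were read by whether a loop of the class framed a gene or ended within 50 kb of it. Over all 19974 genes 21.7% had one. Of 54 B cell identity genes 30 had one (55.6%), of 34 NF-kB and Epstein-Barr virus responsive genes 19 (55.9%), and of 19 cohesin and CTCF genes 10 (52.6%). Of 24 T cell genes 2 had one, CD2 and CD5, and of 27 genes of common fragile sites, the loci that break under replication stress, 2 (7.41%), CTNNA3 and FRA10AC1. CD2 had 17 such loops, of which 16 framed it and 4 were in all 4 lists. Of 34 genes of DNA replication and its checkpoint 8 had one (23.5%), and of 25 p53 and DNA damage response genes 8 (32.0%). Genes of fragile sites are mostly very long, and none of the 27 was framed by a loop of the class. Among defining markers, 5 of 8 B cell genes (BLK, CD22, CD79A, CD79B and MS4A1) had a loop of the class, and 0 of 8 T cell and 0 of 6 myeloid markers had one. The wider list of 24 myeloid and erythroid genes had 6 with a loop (25%), all of them framed, among them S100A8, S100A9, FCGR3A and CEBPB. The lists were drawn up with earlier results of these data known, and the shares are descriptions.

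Summed over its shared loops, MS4A1, which encodes CD20, had 153 counts in APH, 121 in DMSO, 125 in HU and 131 in H2O, with ratios of 0.01 in APH against DMSO and -0.05 in HU against H2O. FCRL5, an Fc receptor-like protein of B cells, had 202 in APH, 114 in DMSO, 171 in HU and 152 in H2O, with 0.50 and 0.19. No B cell identity gene passed the 1.5-fold rule in either contrast, among 22 with a shared loop, and the medians of this list were 0.02 in both. Over all 2111 genes with a shared loop the medians were 0.03 in APH against DMSO and 0.07 in HU against H2O. Of these genes 3.17% were higher and 1.28% lower in APH, and 3.17% higher and 2.27% lower in HU. Of 12 NF-kB and Epstein-Barr virus responsive genes with a shared loop, 1 was lower in each contrast and 0 higher. CD70, the ligand of CD27, had 82 counts in APH and 99 in DMSO, a ratio of -0.60 (-1.04 to -0.16), with 79 in HU and 105 in H2O. ICAM1, an adhesion molecule, had 48 in HU and 77 in H2O, a ratio of -0.67 (-1.22 to -0.13), with 59 in APH and 70 in DMSO. The medians of this list were 0.15 and 0.05, beside the 0.03 and 0.07 over all genes.

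Among cohesin and CTCF genes, WAPL, which releases cohesin from chromatin, was framed by 2 shared loops with 50 counts in APH and 64 in DMSO, a ratio of -0.68 (-1.25 to -0.13), and 39 in HU and 52 in H2O, a ratio of -0.40 (-1.04 to 0.23). The H2O library also stood below DMSO at WAPL, by -0.42 (-0.97 to 0.13), an interval that holds 0. The 7 shared loops near SMC3 are those around DUSP5, with 220 counts in APH, 220 in DMSO, 190 in HU and 228 in H2O, at -0.33 (-0.60 to -0.05) in APH against DMSO. They include the 195 kb loop named above for its low ratio in APH against DMSO, so this value is not separate from that choice. The 4 shared loops near MCM3, a subunit of the replicative helicase, had 214 in APH and 119 in DMSO, at 0.52, below the 1.5-fold rule, and 158 in HU and 127 in H2O, at 0.33. HOXB9 and HOXB13 share a pair of loops with 39 counts in HU and 62 in H2O, at -0.65 (-1.27 to -0.05), and 46 in APH and 51 in DMSO. Among p53 and DNA damage response genes, 4 had a shared loop and none passed the rule in either drug contrast. PMAIP1, a pro-apoptotic p53 target, had 14 loops, of which 7 were in APH, 1 in DMSO, 6 in HU and 8 in H2O and none in all 4 lists.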

How the data were processed

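SMC1 HiChIP was measured in 4 libraries, 1 per group, grouped by the treatment in the labels. The submitters' processing notes name bcl2fastq 2.17, MACS3 3.0.1 and the build hg38. An aligner and a loop caller are not named there. The authors deposited 1 headerless list of called loops per library, so columns were read from their values: a whole-number contact count per pair of 5 kb bins, not normalized and at least 12, a deposited value taken as the expected count, which lies under the observed count for every loop, and a deposited p-value taken as the false discovery rate of the call, below 0.01 throughout. The lists hold no total depth.

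Anchors were set against gene bodies of RefSeq GRCh38.p14, the build of the lists. Counts of the 9529 loops in all 4 lists were divided by the library's own sum over these loops (376948 in APH, 300320 in DMSO, 322048 in HU, 325634 in H2O), with no pseudocount. Ratios carry 95% exact conditional binomial intervals and shares exact Clopper-Pearson intervals. They cover counting error only, and read pairs without molecular identifiers are not independent molecules. Many loops share an anchor or frame the same gene. Intervals on shares of loops treat them as independent and are therefore too narrow. Scripts used Python 3.11.15, numpy 2.4.6, pandas 2.3.3, scipy 1.17.1 and matplotlib 3.10.9, and the ratio and overlap steps were tested on simulated data. Named loops are the 10 places with most counts, the 8 highest and 8 lowest per drug contrast that pass the 1.5-fold rule with a larger log2 ratio than H2O against DMSO, the 5 with most counts in both drug lists only and in both vehicle lists only, the busiest anchor bins and listed genes. The class, the gene lists and the rules were chosen with earlier results of these data known. No genome sequence was used here, so anchors were not searched for motifs beyond RefSeq promoters. Alternatives covered gene definitions, count minimum, thinning, scaling, vehicle, span matching, expected counts and tolerance in anchor position.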

Additional observations from a re-analysis of the deposited data

How the results depend on the processing

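No paired analysis was possible because each group holds 1 library, and for the same reason no library could be left out. Of 80 alternatives of the summary values, 46 kept their direction and stayed on their side of the threshold, or within the interval or 1.5 times of the reported value. The class size depends on what counts as a gene. It was 3449 loops with genes extended by 5 kb, 2243 with genes of every biotype and 1865 with at least 24 counts in some library. The share of mid-range loops was 18.3% in APH, 18.6% in DMSO, 19.3% in HU and 18.6% in H2O at 24 counts or more, so APH did not exceed DMSO there, and 7.68%, 6.82%, 7.68% and 6.63% with genes of every biotype. Scaling by all listed loops turned the pooled ratio of APH against DMSO to -0.32 and took H2O against DMSO past 0, to -0.24. It gave 6 loops higher and 154 lower in APH against DMSO, 24 lower in HU against H2O, and 1 higher and 76 lower in H2O against DMSO. With medians of counts divided by the expected count, the class lay below other mid-range loops, with a difference of -0.014 in APH against DMSO and of -0.028 in H2O against DMSO. The cause was not tested. Requiring 24 counts in every library brought HU against H2O to 0.012 (-0.010 to 0.034) and its difference from other mid-range loops to 0.020 (-0.005 to 0.044), where both intervals held 0. A 2-fold rule left 14 higher and 3 lower in APH against DMSO, 16 and 11 in HU against H2O, and 5 and 3 in H2O against DMSO, and APH against H2O had 36 lower. With anchors allowed to differ by 1 bin, 2733 loops were in all 4 lists and 51 in both vehicle lists only. At 24 counts or more these were 615 and 20, and 132 were in both drug lists only. For the 32 drug ratios of named loops, 105 of 128 alternatives left the interval off 0 on the same side. In the other 23, of which 18 used the other vehicle and 5 the all-loop scaling, the interval came to hold 0, and none turned direction. The lowest listed count of 12 limits what the lists can show of weak loops.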

Other observations

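Among antigen receptor loci, 45 loops of the class had both anchors inside the T cell receptor alpha locus, where 53 had at least 1, and 11 had both inside the immunoglobulin lambda locus, where 18 had at least 1. None had both anchors inside the immunoglobulin heavy, immunoglobulin kappa, T cell receptor beta or T cell receptor gamma loci. The 11 shared loops within the T cell receptor alpha locus had 664 counts in APH, 458 in DMSO, 522 in HU and 526 in H2O, which gave a log2 ratio of 0.21 (0.03 to 0.38) in APH against DMSO and 0.00 (-0.17 to 0.18) in HU against H2O. The 2 shared loops within the immunoglobulin lambda locus had 79 counts in APH, 52 in DMSO, 55 in HU and 63 in H2O. RefSeq does not class the segments of these loci as protein-coding, so loops inside them could enter the class.

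By chromosome, the class took from 9.99% of the mid-range loops on chromosome 15 (8.28% to 11.9%) to 29.9% on chromosome 21 (24.3% to 36.0%). On chromosome 19 the share was 11.4%. On chromosome 4 the pooled ratio of APH against DMSO was 0.23 (0.10 to 0.35) over 35 shared loops, and H2O against DMSO was 0.16 (0.02 to 0.29) there. On chromosome 7 it was 0.18 (0.09 to 0.27) over 57 shared loops, with 0.14 (0.05 to 0.24) in HU against H2O and -0.02 (-0.12 to 0.08) in H2O against DMSO. Both drug intervals also lay above 0 on chromosomes 9, 11 and 12, where the vehicle intervals held 0. The ratios there were 0.11, 0.12 and 0.11 in APH against DMSO, and 0.10, 0.13 and 0.13 in HU against H2O. These chromosomes were picked after their values were seen. The deposited lists sort calls into kinds, and those called broad peaks took a larger share of the class than of other mid-range loops in every library, at 19.2% against 16.3% in APH, 21.2% against 17.8% in DMSO, 18.9% against 16.3% in HU and 22.5% against 20.04% in H2O. What the kinds stand for is not given in the sources used here.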
